A study of Mus musculus with 9 samples.

Results

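The comparison of Th17 with naive CD4+ T cells rests on 6 of the 9 arrays of the series, 3 of cells sorted as Th17 and 3 of cells sorted as naive, and it was described across all genes that could be measured. BALB/c mice gave the cells of both groups, which were isolated from lymph nodes and spleen, enriched for CD4 on magnetic columns and then stimulated. The stimulus lasted 3 h and combined PMA, a phorbol ester, at 10 ng/ml with the calcium ionophore ionomycin at 500 ng/ml. The naive cells are therefore stimulated cells too, taken as CD3+CD4+ cells with a high surface level of CD45RB for which the study names no cytokine gate. The Th17 cells were CD3+CD4+ and CD45RB low, had captured secreted IL-17A on their surface and carried no interferon gamma, so the groups differ in the CD45RB gate as well as in the cytokine. The other 3 arrays hold Th1 cells, which were CD45RB low, interferon gamma positive and IL-17A negative after the same stimulation. They shared the fit and are used below only where a value in Th17 cells is set against them. The sources used here do not give the age of the mice, the number of animals behind a sample or which of the RNA kits named was used for it. The p-values therefore rest on the spread between arrays of a group alone, and that spread may be technical.

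Th17 cells are helper T cells that secrete IL-17A, IL-17F and IL-22 and defend epithelial surfaces against fungi and extracellular bacteria. They differentiate under TGF-beta with IL-6 or IL-1 and are kept by IL-23, with transcription factors that include RORalpha, STAT3, IRF4, BATF and c-MAF. Naive cells recirculate through lymph nodes by way of CCR7 and are held quiescent until they meet antigen. PMA and ionomycin bypass the T cell receptor by switching on protein kinase C and calcium entry, which brings out cytokine transcription within hours.

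Levels are given in log2 after subtraction of the 75th percentile of each array, so that 0 is the level under which 75% of the spots lie. Changes are differences of such levels, Th17 minus naive, given as log2 ± SE from limma. A gene was called at a Benjamini-Hochberg adjusted p under 0.05 over all 19134 genes tested, and 13117 of these carried a symbol. Each array had 53.4% to 58.3% of its 39429 probes well above background, and 0 spots were saturated. Pearson's r across genes was 0.990 to 0.992 between naive arrays, 0.982 to 0.989 between Th17 arrays and 0.927 to 0.938 between a naive and a Th17 array. The naive arrays shared slide 1 with a Th1 array, Th17 replicates 1 and 2 lay on slide 2 with the other Th1 arrays, and Th17 replicate 3 lay on slide 3. No slide held both groups, so within-slide values cannot be given. Th17 replicate 3 was the only array on its slide and adds nothing to the contrast when slide is a fixed block. A fit with slide as a fixed block thus uses Th17 replicates 1 and 2, and ties the groups together through the Th1 arrays alone, of which slide 1 held 1. Values from that fit stand below where they end a call or move a count by over 1.5 times.

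Of the genes tested, 54.1% differed between the populations, and the changes were larger upwards than downwards. In Th17 cells 4610 genes were called higher (24.1% of those tested) and 5748 lower (30.0%), together 10358 (54.1%). Of these, 2255 rose at least 2-fold (11.8%) and 1997 fell at least 2-fold (10.4%). At a log2 change of at least 3 the numbers were 479 higher and 181 lower, and at least 5 they were 149 and 23. The median called rise was 0.98 and the median called fall -0.78, against a median of -0.094 over all genes. The plot of mean levels shows the largest rises standing far above the diagonal from genes near the lower end of the naive scale. With slide as a block 5215 genes passed, 2693 higher and 2522 lower, and with normexp background correction of the raw signal 1223 passed, 56.3% of them higher against 44.5% in the fit used here. Of the 205 genes named by rule and called, 77 lost their call under that correction, Hif1a, Rbpj, Il2rb, Cdk6, Shmt2, Sdha, Nfkb1, Cd3e, Ifit3 and Hspb1 among them, and none changed sign. The background mean it estimated for Th1 replicate 2 was -2093. Without 5 spots of that array, an alternative chosen after seeing the data, 8710 genes passed.

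**Figure D1:**
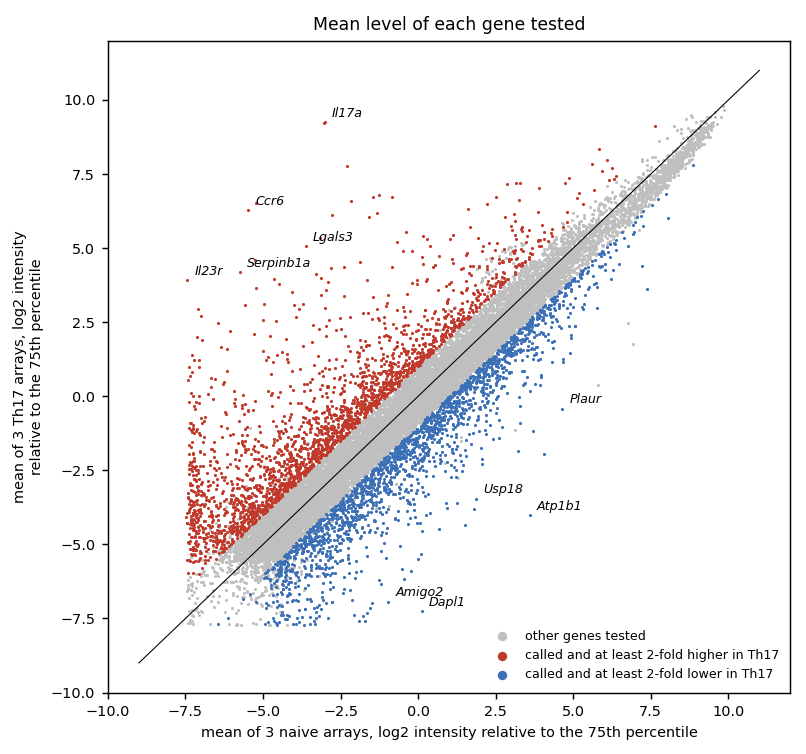
Mean log2 intensity of each of the 19134 genes tested on the 3 naive arrays (horizontal) and the 3 Th17 arrays (vertical), scaled as in the text, with the line of equal levels. Red points are the 2255 genes called and at least 2-fold higher, blue points the 1997 called and at least 2-fold lower, and grey points all others.

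The genes that define Th17 cells were high on every Th17 array and low or under background on the naive arrays. Il17a stood at -0.24, -4.68 and -4.16 on naive arrays 1, 2 and 3 and at 9.04, 9.16 and 9.51 on the Th17 arrays. The groups did not overlap, and naive array 1 was the highest of its group. Since the sort selected secreted IL-17A, its change of 12.26 ± 1.15 (limma adjusted p = 5.59e-05) checks the labels and is no finding. Il17f, whose protein pairs with IL-17A, was not used in the sort and stood at -1.22, -3.76 and -4.08 in naive and 9.13, 9.11 and 9.49 in Th17 cells, a change of 12.26 ± 0.73 (adjusted p = 5.38e-06). Naive array 1 was again the highest naive array. Il22, a cytokine that acts on epithelia, read -1.99, -3.21 and -1.69 against 7.97, 7.37 and 7.97 (10.06 ± 0.47, adjusted p = 1.8e-06).

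Il23r, the receptor chain through which IL-23 acts, was above background on 0 of 3 naive arrays (-7.33, -7.20 and -7.83) and on all Th17 arrays (4.39, 3.83 and 3.54). For such a gene the fold is bounded from below, by setting the mean of its bright group against the lowest signal above background on each array of the dim one (or its own signal, if higher). For Il23r that fold was at least 545-fold. Ccr6, the receptor for the chemokine CCL20, stood at -4.38, -6.76 and -5.32 in naive cells, with 2 of 3 arrays above background, and at 6.25, 6.29 and 6.31 in Th17 cells (11.77 ± 0.51, adjusted p = 1.36e-06). Its Th17 values were spread by an SD of 0.031 (n = 3). The 3 markers Il17a, Il23r and Ccr6 were above background on each Th17 array.

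The promoters of Il17a, Il17f, Il22, Il23r, Ccr6 and Il1r1 were searched because nuclear receptors such as RORalpha bind a short response element. Only entries of the 4 genes with a match to AGGTCA are shown, so its presence in them was selected. Each is the 250 bases before the RefSeq start in GRCm38.p6, 5′ to 3′ on the strand of the gene. Capitals mark AGGTCA, the core of the ROR element, or its reverse complement, and in Il17a also TGANTCA, the AP-1 element. They are chr1:20730655-20730904 on the plus strand for Il17a, chr1:20784271-20784520 on the minus strand for Il17f, chr6:67491856-67492105 on the minus strand for Il23r and chr17:8235793-8236042 on the plus strand for Ccr6.
Il17a: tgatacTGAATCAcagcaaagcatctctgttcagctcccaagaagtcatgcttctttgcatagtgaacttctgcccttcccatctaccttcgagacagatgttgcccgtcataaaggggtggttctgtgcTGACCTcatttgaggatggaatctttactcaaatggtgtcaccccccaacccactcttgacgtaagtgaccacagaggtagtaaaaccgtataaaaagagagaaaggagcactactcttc
Il17f: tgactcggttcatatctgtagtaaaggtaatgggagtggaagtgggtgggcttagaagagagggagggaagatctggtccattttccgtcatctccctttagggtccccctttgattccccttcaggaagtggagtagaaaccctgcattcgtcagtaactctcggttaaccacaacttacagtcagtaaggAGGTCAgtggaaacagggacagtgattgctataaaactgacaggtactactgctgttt
Il23r: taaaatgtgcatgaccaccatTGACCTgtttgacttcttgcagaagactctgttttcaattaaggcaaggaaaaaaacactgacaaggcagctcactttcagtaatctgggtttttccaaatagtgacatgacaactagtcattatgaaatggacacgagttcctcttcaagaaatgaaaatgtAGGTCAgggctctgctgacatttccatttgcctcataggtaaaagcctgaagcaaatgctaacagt
Ccr6: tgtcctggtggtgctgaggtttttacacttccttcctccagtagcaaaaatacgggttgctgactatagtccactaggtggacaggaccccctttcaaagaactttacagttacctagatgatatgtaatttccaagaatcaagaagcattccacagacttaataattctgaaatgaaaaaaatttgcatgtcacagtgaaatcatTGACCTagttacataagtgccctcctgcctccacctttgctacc

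AGGTCA was found once in Il17a, its outermost base 120 bases before the start, once in Il17f at 58, at 229 and 66 in Il23r, and once in Ccr6 at 44. TGANTCA was found in Il17a at 244. A further start of Ccr6 and the entries for Il22 and Il1r1 held neither motif in this window. Searched on both strands, AGGTCA was in the promoter of 15.8% of 27025 genes in the table and in 13.7% of the 10508 that were tested here. It was in 5 of the 21 tested Th17 programme genes that had an entry. Among genes called and at least 8-fold higher 17.6% of 279 held it, and among those at least 8-fold lower 8.8% of 125. The longer ANTAGGTCA, which contains AGGTCA, was in 0.585% of all genes in the table and TGANTCA in 7.82%. A match describes letters, not a site.

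**Figure D2:**
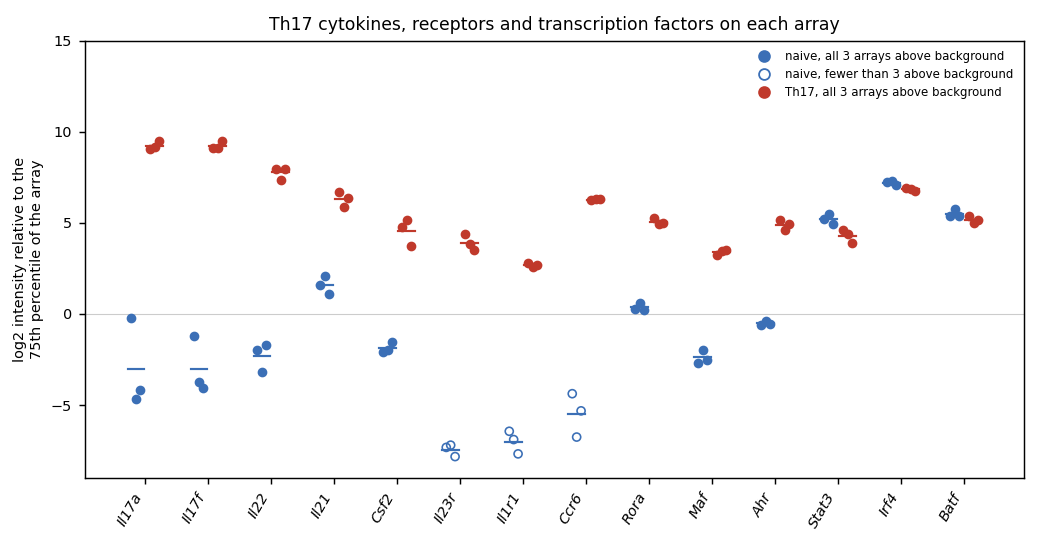
Level of 14 genes of the Th17 programme on each array, in log2 scaled to the 75th percentile (vertical), with naive arrays in blue and Th17 arrays in red. Each dot is 1 array, bars are group means, and open dots mark groups in which fewer than 3 arrays were above background. The cytokines, Il23r, Il1r1, Ccr6, Rora, Maf and Ahr lie apart between groups, as do Il21 and Csf2, while Stat3, Irf4 and Batf lie close together or lower in Th17 cells.

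Of the 30 genes listed for the Th17 programme 28 were tested, and 23 were higher, 2 lower and 3 not called, with a median change of 5.45. This list and the others below were drawn up with earlier results of these data known, so their counts describe them and give no independent support. With slide as a block 24 were higher and 0 lower. In the same fit 18 of the 28 were higher in Th17 than in Th1 cells and 1 was lower (median 2.64), against 8.04% and 7.66% of all genes tested. Both comparisons use the same Th17 arrays. For every list below, the shares of all genes tested are 24.1% higher and 30.0% lower against naive cells. The change against Th1 cells was 7.67 for Il22 (adjusted p = 3.19e-05), 4.81 for Ccr6 (adjusted p = 0.000538) and 6.47 for Il17f (adjusted p = 0.000741). Il1r1, the signalling receptor of IL-1, was at least 234-fold higher than in naive cells and above background on 0 Th1 arrays.

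Transcription factors of the programme did not move alike. Rora rose from between 0.22 and 0.58 to between 4.94 and 5.26 (4.70 ± 0.19, adjusted p = 1e-06), and Maf, which drives Il10 and Il21, by 5.79 ± 0.31. Ahr, the dioxin receptor needed for Il22, rose by 5.41 ± 0.25, and Rbpj, the nuclear partner of Notch, by 1.88 ± 0.12. Hif1a, the oxygen-sensitive factor, rose by 0.97 ± 0.17. The factors that act early in Th17 differentiation stood no higher than in stimulated naive cells. Stat3 read 5.24, 5.47 and 4.95 in naive and 4.62, 4.37 and 3.88 in Th17 cells. Its fall of 0.93 (adjusted p = 0.00549) was not called with slide as a block (-0.46, adjusted p = 0.275). Irf4 read 7.22, 7.28 and 7.11 against 6.93, 6.89 and 6.77, a difference of -0.34 (adjusted p = 0.0161). That call was lost without naive replicate 2 (-0.30, adjusted p = 0.0594), under quantile normalization (-0.02, adjusted p = 0.887) and with slide as a block (-0.21, adjusted p = 0.387). Batf was at -0.33 (adjusted p = 0.124), and at 0.06 (adjusted p = 0.9) with slide as a block. Nfkbiz, the NF-kappa-B cofactor IkappaBzeta, was at 0.51 (adjusted p = 0.0763), and was called without naive replicate 1 (0.68, adjusted p = 0.0377), without Th17 replicate 3 (0.70, adjusted p = 0.0211) and with the replicate number as a block (adjusted p = 0.0181).

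Other members of the list ranged widely. Serpinb1a, a protease inhibitor, was at least 661-fold higher (4.68, 4.47 and 3.43 in Th17 cells). Tmem176b, an intracellular membrane channel, was above background on 1 of 3 naive arrays and rose by 8.08 ± 0.56, and its neighbour in the list Tmem176a was at least 62.9-fold higher. Acsbg1 activates long-chain fatty acids and was above background on 2 of 3 naive arrays, and it rose by 6.79 ± 0.35. Ltb4r1, the leukotriene B4 receptor, rose by 5.48 ± 0.45, and it was 5.09 higher than in Th1 cells (adjusted p = 0.000203). Csf2, which encodes GM-CSF, read -2.06, -1.96 and -1.57 against 4.75, 5.15 and 3.73 (6.41 ± 0.46). Klrb1f, a lectin-like receptor, was at least 3.04-fold higher and above background on 0 Th1 arrays. Abcb1a, the multidrug transporter, was at 0.65 ± 0.31 (adjusted p = 0.108), and 0.99 (adjusted p = 0.00867) without Th17 replicate 3. With slide as a block it was at 1.31 (adjusted p = 0.0465), and with the replicate number as a block it was also called (adjusted p = 0.0295).

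Genes of cytokine receptor chains changed in both directions. Of 30 tested chains 13 were higher and 11 lower (12 and 7 with slide as a block), against 24.1% and 30.0% of all genes. Their median of 0.15 was -0.06 when all probes of a gene were averaged. Among those that rose were the IL-18 receptor genes Il18rap (0 of 3 naive arrays above background) and Il18r1 at 5.46, named after their values were seen. Il1r2, the decoy receptor of IL-1, read -1.61, -2.46 and -2.45 in naive and 6.63, 6.05 and 7.05 in Th17 cells (8.75 ± 0.30, adjusted p = 5.91e-07). Il1rl1, the IL-33 receptor ST2, was at least 108-fold higher and differed by 0.27 from Th1 cells (adjusted p = 0.728). Il12rb1, the chain shared by the receptors for IL-12 and IL-23, rose by 3.58 ± 0.32 (1.825 by a second probe, also called), and Il2rb by 1.89 ± 0.13. The 11 that fell ranged from -2.57 to -0.63, and among them, named after their values were seen, were Il6ra at -2.17 and Il6st at -1.80, the chains of the IL-6 receptor. In the TGF-beta and activin pathway 9 of 25 rose and 12 fell (median -0.47), and with slide as a block 7 rose and 4 fell. Itgav, an integrin chain that activates latent TGF-beta, rose by 3.59 ± 0.19, and its partner Itgb8 was at least 2.89-fold higher. Tgfbr3, the coreceptor betaglycan, fell by 2.91 and Smurf2, which degrades pathway members, by 1.45.

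Helper cytokine genes outside the Th17 programme list were more often higher than lower in Th17 cells. Of 26 tested, 16 were higher and 3 lower, with a median of 1.71, against 24.1% and 30.0% of all genes, and 5 were lower with the replicate number as a block. Il10 read -3.71, -3.75 and -4.72 in naive and 3.57, 3.16 and 3.87 in Th17 cells (7.59 ± 0.31), and Il13, a type 2 cytokine, read -0.47, -1.20 and -3.03 against 6.41, 6.33 and 5.43 (7.63 ± 0.69). Neither differed from Th1 cells by the test (-0.94, adjusted p = 0.0769, and -0.30, adjusted p = 0.808). Il21, which helps B cells and is in the Th17 list, rose by 4.74 ± 0.40. Ifng was at 0.30 ± 0.23 (adjusted p = 0.3), read 1.34, 1.32 and 1.61 in naive and 2.03, 1.17 and 1.96 in Th17 cells, and stood 7.41 under its level in Th1 cells. The sort excluded surface interferon gamma, so the last value checks the labels. Without Th17 replicate 2 its change against naive cells was 0.58 (adjusted p = 0.0165). Penk, the precursor of enkephalins, rose by 6.74 ± 0.38. Ccl1, the ligand of CCR8, rose by 8.87 ± 0.49.

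Among 15 TNF family ligands 7 were higher and 3 lower (median 0.74). Tnfsf11, the osteoclast factor RANKL, rose from a mean of -0.67 to one of 5.22 (5.88 ± 0.23), and Tnfsf14, known as LIGHT, rose by 4.32 ± 0.18. Tnfsf9 rose by 3.27 and Tnfsf8, the CD30 ligand, by 1.89. Of 17 inhibitory receptors and ectonucleotidases 13 were higher and 1 lower, with a median of 2.35 that was 1.04 under normexp correction (10 and 0 with slide as a block). Havcr2, which encodes TIM-3, rose by 6.82 ± 0.31, Ctla4 by 6.78 ± 0.38, Nt5e, the ectoenzyme CD73, by 4.76 ± 0.25 and Pdcd1, the gene of PD-1, by 4.04 ± 0.22. Costimulatory and TNF family receptors were mixed, with 10 of 24 higher and 6 lower. Icos rose by 4.32 ± 0.28 and Tnfrsf4, known as OX40, by 2.51, whereas Cd27, which is lost from differentiated cells, fell by 3.74 (2.81, 2.57 and 2.71 in naive cells, -1.18, -1.12 and -0.82 in Th17 cells).

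Genes of migration were more often higher than lower. Of 20 tested chemokine and lipid mediator receptors 13 were higher and 3 lower (median 2.58). Cxcr6, which marks tissue-homing effector cells, read -1.03, -1.42 and -1.34 in naive cells and had a mean of 6.78 in Th17 cells (SD 0.189, n = 3; 8.05 ± 0.22, adjusted p = 2.07e-07). Cxcr3, best known from Th1 cells, rose by 5.95 ± 0.17 and stood 1.08 below its level in Th1 cells (adjusted p = 0.00449). Ccr4 rose by 5.08 ± 0.27 and Ptger2, a prostaglandin E2 receptor, by 4.43 ± 0.21. In the list of S100, annexin, galectin and cytoskeletal genes 16 of 30 were higher and 8 lower (median 0.69, and 16 and 2 with slide as a block). Lgals3, a galectin, rose by 8.69 ± 0.44, S100a4 by 8.52 ± 0.41, S100a6 by 7.42 ± 0.46 and Anxa1, an annexin of resolving inflammation, by 8.86 ± 0.40 with 2 of 3 naive arrays above background. Ezr, the membrane linker ezrin, fell by 2.09. Of 21 tested integrin and adhesion genes 11 were higher and 7 lower, with a median of 0.50 and a range of -4.85 to 5.13. The largest rise in that list was of Alcam, an adhesion molecule that binds CD6, by 5.13 ± 0.24. The metalloproteinase gene Adam8 rose by 7.13 ± 0.26 and Lamc1, a laminin chain, by 7.13 ± 0.13, and both were higher than in Th1 cells (5.03, adjusted p = 1.32e-05, and 3.07, adjusted p = 8.3e-06).

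**Figure D3:**
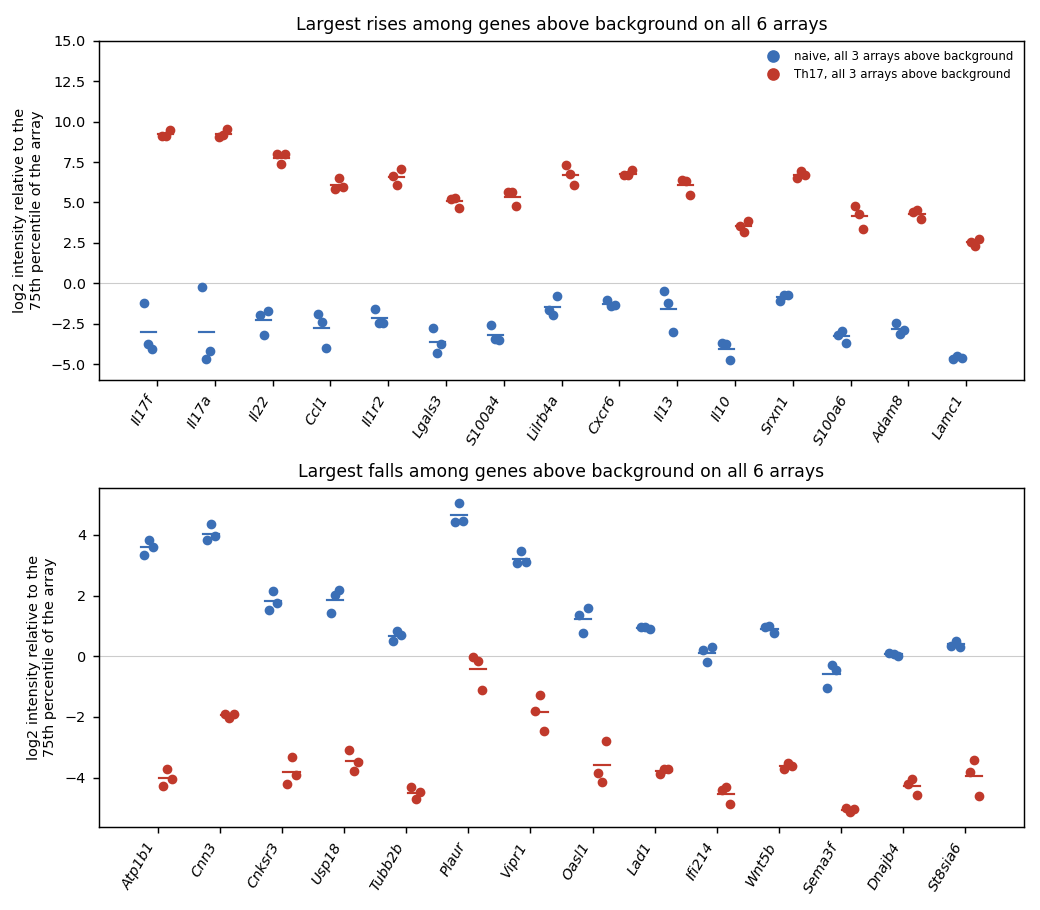
Level on each array of the 15 largest rises (upper panel) and 14 of the 15 largest falls (lower panel) among named genes above background on all 6 arrays, as log2 intensity relative to the 75th percentile. Each dot is 1 array and each bar a group mean. Only called genes whose 3 naive and 3 Th17 values do not overlap could be drawn, so the gap between blue and red dots was selected. Of the 19134 genes tested, 5368 lay higher and 6752 lower in Th17 cells without overlap. Il17a, Il17f and Il13 have the widest spread of naive arrays in the upper panel.

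Outside the lists, Lilrb4a, an inhibitory immunoglobulin-like receptor, rose by 8.19 ± 0.42, and Srxn1, which repairs oxidised peroxiredoxins, rose by 7.56 ± 0.20. Of all genes tested 521 were above background on every Th17 array and on no naive array by any of their probes, 317 of them with a symbol, and 164 were so in the other direction, 128 with a symbol. When 2 of 3 arrays were enough the numbers were 679 and 230. The filter of 3 of 9 arrays admits a gene seen on 2 of these only if a Th1 array saw it too. Among genes seen on every Th17 and no naive array, Ccn4, a matricellular protein, was at least 202-fold, Mmp10, a metalloproteinase, at least 164-fold and Serpina3f, a protease inhibitor, at least 155-fold higher. Cysltr1, a cysteinyl leukotriene receptor, was at least 135-fold, Lingo4 at least 114-fold and the granin Scg2 at least 94.1-fold higher. The probe assigned to Iltifb, a near-identical copy of Il22, read at least 276-fold higher. Its signal cannot be told apart here from that of Il22 itself, so it is not counted as a further gene. Ccn4 was 2.15 lower than in Th1 cells (adjusted p = 0.0168), while Cysltr1 was 4.21 higher (adjusted p = 0.00213). Lingo4, with 2 of 3 Th1 arrays above background, was 6.84 higher than in them (adjusted p = 2.19e-05).

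Genes of the naive state were lower in Th17 cells. Of 31 tested genes of the naive and quiescence list 20 were lower and 4 higher, with a median of -1.51 (14 and 2 with slide as a block). Ccr7 read 7.29, 7.53 and 7.29 against 2.87, 3.99 and 3.96 (-3.76, adjusted p = 1.93e-05), and the transcription factors Lef1 and Tcf7 were at -2.99 and -1.88 (these 3 and the next were named after their values were seen). Satb1, a chromatin organiser, was at -0.37 (adjusted p = 0.24). Dapl1, a gene of quiescent T cells, was above background on all naive arrays (0.19, 0.10 and 0.05) and on 0 Th17 arrays, a fall of at least 47.0-fold, and it was above background on all 3 Th1 arrays. Itm2a fell by 4.01 and Actn1, an actin crosslinker, by 3.77. The 4 that rose were Il7r, through which IL-7 keeps T cells alive, at 2.83, Gimap3 at 0.81, Foxp1 and Tsc1, of which all but Gimap3 were named after their values were seen.

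Several of the largest falls were outside the naive list. Atp1b1, the beta subunit of the sodium pump, read 3.35, 3.84 and 3.59 in naive and -4.27, -3.70 and -4.05 in Th17 cells (-7.60 ± 0.20, adjusted p = 2.07e-07). Cnn3, an actin-binding calponin, fell by 5.99 and Plaur, the urokinase receptor, by 5.07, from between 4.43 and 5.05 to between -1.10 and -0.03. Vipr1, the receptor of vasoactive intestinal peptide, fell by 5.07, the tubulin Tubb2b by 5.18 and Wnt5b, a secreted ligand, by 4.51. A second probe gave smaller falls that were also called, -2.67 for Vipr1 and -3.59 for Tubb2b. Tubb2b was above background on 0 Th1 arrays, and Plaur was 1.16 higher in Th17 than in Th1 cells (adjusted p = 0.0465). Khdrbs3, an RNA-binding protein, was at least 30.4-fold lower, Amigo2, an adhesion molecule, at least 22.2-fold and Dapk1, a death-associated kinase, at least 13.4-fold, and each was above background on 0 Th17 arrays. The calls of these last genes were lost under normexp correction (adjusted p = 0.104, 0.115 and 0.328), where the background mean estimated for Th1 replicate 2 was -2093. They were kept when 5 spots of that array were left out, an alternative chosen after seeing the data.

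Of the 33 lists plotted, interferon response genes had the highest share of falls in the fit used here, 27 of 38 tested. Of the 38, 4 were higher and the median was -1.17 (16 lower and 2 higher with slide as a block). The number higher was also 2 when naive replicate 1, naive replicate 3, Th17 replicate 1 or Th17 replicate 2 was left out. The rank depended on the setting. With slide as a block the share of falls was higher in the cholesterol and fatty acid synthesis list (15 of 31) and the naive and quiescence list (14 of 31). With all probes of a gene averaged it was higher among ribosomal proteins (23 of 30). Type I interferon induces these genes through a complex that holds STAT2 and IRF9, and their products restrain viruses. Usp18, which removes ISG15 from proteins, read 1.41, 2.01 and 2.18 in naive and -3.09, -3.79 and -3.48 in Th17 cells (-5.32 ± 0.30, adjusted p = 3.78e-06). Isg15 itself read 4.16, 4.27 and 4.52 against 1.37, 0.97 and 1.18 (-3.15 ± 0.21, adjusted p = 1.06e-05), and Oasl1, which restrains translation of Irf7, fell by 4.84. Ifit3, an RNA-sensing effector, read -0.89, -1.88 and -0.84 in naive cells and was above background on 0 Th17 arrays, at least 18.9-fold lower. Its near copy Ifit3b (at least 17.8-fold lower) cannot be told apart from it with certainty. The exception was Ifih1, the double-stranded RNA sensor MDA5, which read -0.31, -0.21 and -0.04 against 3.68, 3.78 and 4.04 (4.02 ± 0.15, adjusted p = 7.45e-07). Among the others that rose, and named after their values were seen, were Gbp3 at 0.35 and Oas3 at 0.77, the latter with 1 of 3 naive and 2 of 3 Th17 arrays above background. Against Th1 cells 9 of the 38 were higher and 4 lower (median 0.00), beside 8.04% and 7.66% of all genes tested.

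**Figure D4:**
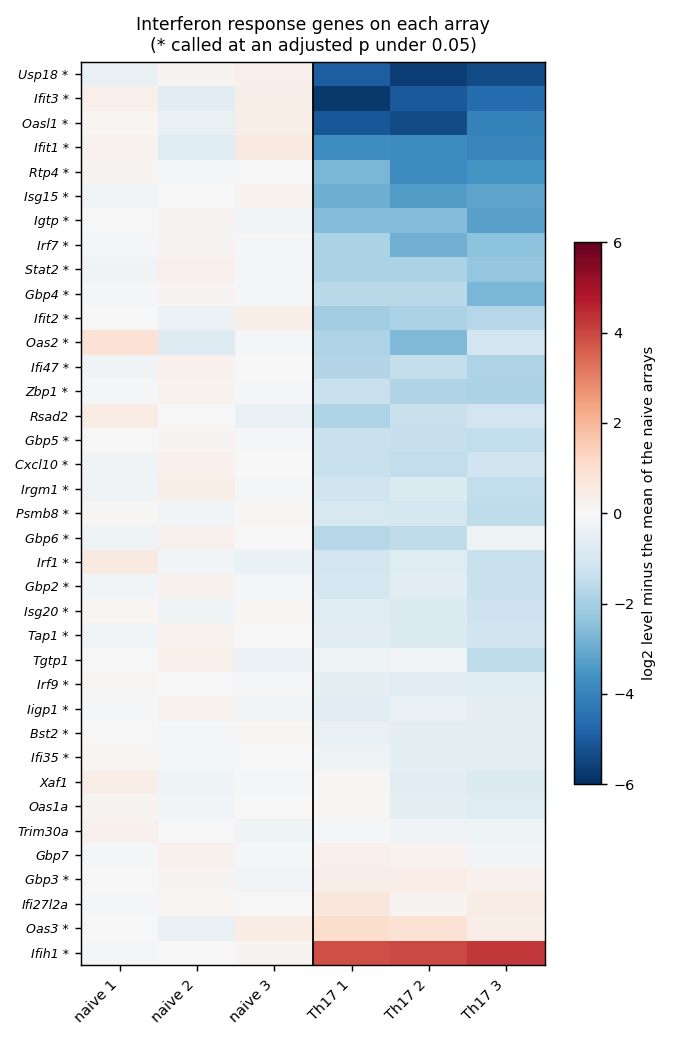
Interferon response genes (37 of the 38 tested) in rows and the 6 arrays in columns. The colour gives the log2 level minus the mean of the naive arrays, blue for lower and red for higher, and asterisks mark the 30 called genes among them. The 3 Th17 columns are blue for most rows and alike among themselves, with Ifih1 red in the last row.

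Promoters of interferon response genes were searched because the interferon-stimulated element is known from such genes. Those of Ifit3 and Isg15 are shown and were selected among entries with a match. They are chr19:34583279-34583528 on the plus strand for Ifit3 and chr4:156200819-156201068 on the minus strand for Isg15, from the same RefSeq table, and capitals mark GAAANNGAA or its reverse complement.
Ifit3: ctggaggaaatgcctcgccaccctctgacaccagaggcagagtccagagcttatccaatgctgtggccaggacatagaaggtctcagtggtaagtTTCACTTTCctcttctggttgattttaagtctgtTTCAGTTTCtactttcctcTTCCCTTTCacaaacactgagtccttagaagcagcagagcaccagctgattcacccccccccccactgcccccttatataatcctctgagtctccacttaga
Isg15: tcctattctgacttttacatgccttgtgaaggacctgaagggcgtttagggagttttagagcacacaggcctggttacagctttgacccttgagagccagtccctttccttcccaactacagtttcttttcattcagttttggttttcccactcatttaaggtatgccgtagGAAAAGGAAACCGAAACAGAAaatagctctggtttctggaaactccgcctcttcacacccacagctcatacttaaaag
Ifit3 held 3 matches, their outermost bases 155, 121 and 102 bases before the start, and Isg15 held 3 that overlap, at 78, 72 and 66. The motif was in the promoter of 8.18% of all genes in the table, of 7.73% of the 10508 tested genes with an entry and of 18 of the 29 tested interferon response genes with one. Among the 20 of those that were lower it was in 10, and the entry of Oasl1 held none.

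Genes of the unfolded protein response and amino acid supply were mostly higher. Secretory cells widen the folding capacity of the endoplasmic reticulum through IRE1 and XBP1, ATF6 and PERK, and the PERK arm shares the factor ATF4 with the amino acid response. Of 33 tested genes 23 were higher and 6 lower (median 0.67, and 16 and 3 with slide as a block), and 3 were lower without naive replicate 2. Asns, which makes asparagine, read 2.53, 2.68 and 2.32 in naive and 6.67, 6.75 and 6.77 in Th17 cells (4.22 ± 0.15, adjusted p = 6e-07). Xbp1 read 3.14, 3.52 and 3.39 against 5.39, 5.42 and 5.89 (2.22 ± 0.16, adjusted p = 1.44e-05), and the folding enzyme Pdia4 rose by 2.10 ± 0.22. Shmt2, a mitochondrial enzyme of serine use, rose by 0.88 ± 0.09. Named after their values were seen, Atf6 was at 1.99 and Ern1, which encodes IRE1, at 1.57, while Atf4 was at -0.81, Ddit3 at -0.69, Ppp1r15a at -1.52 and the PERK gene Eif2ak3 at -0.48, all called. Against Th1 cells 25 of the 33 were higher and 1 lower (median 0.96), with Xbp1 at 1.54 (adjusted p = 0.000497), Asns at 1.17 and Pdia4 at 1.62.

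**Figure D5:**
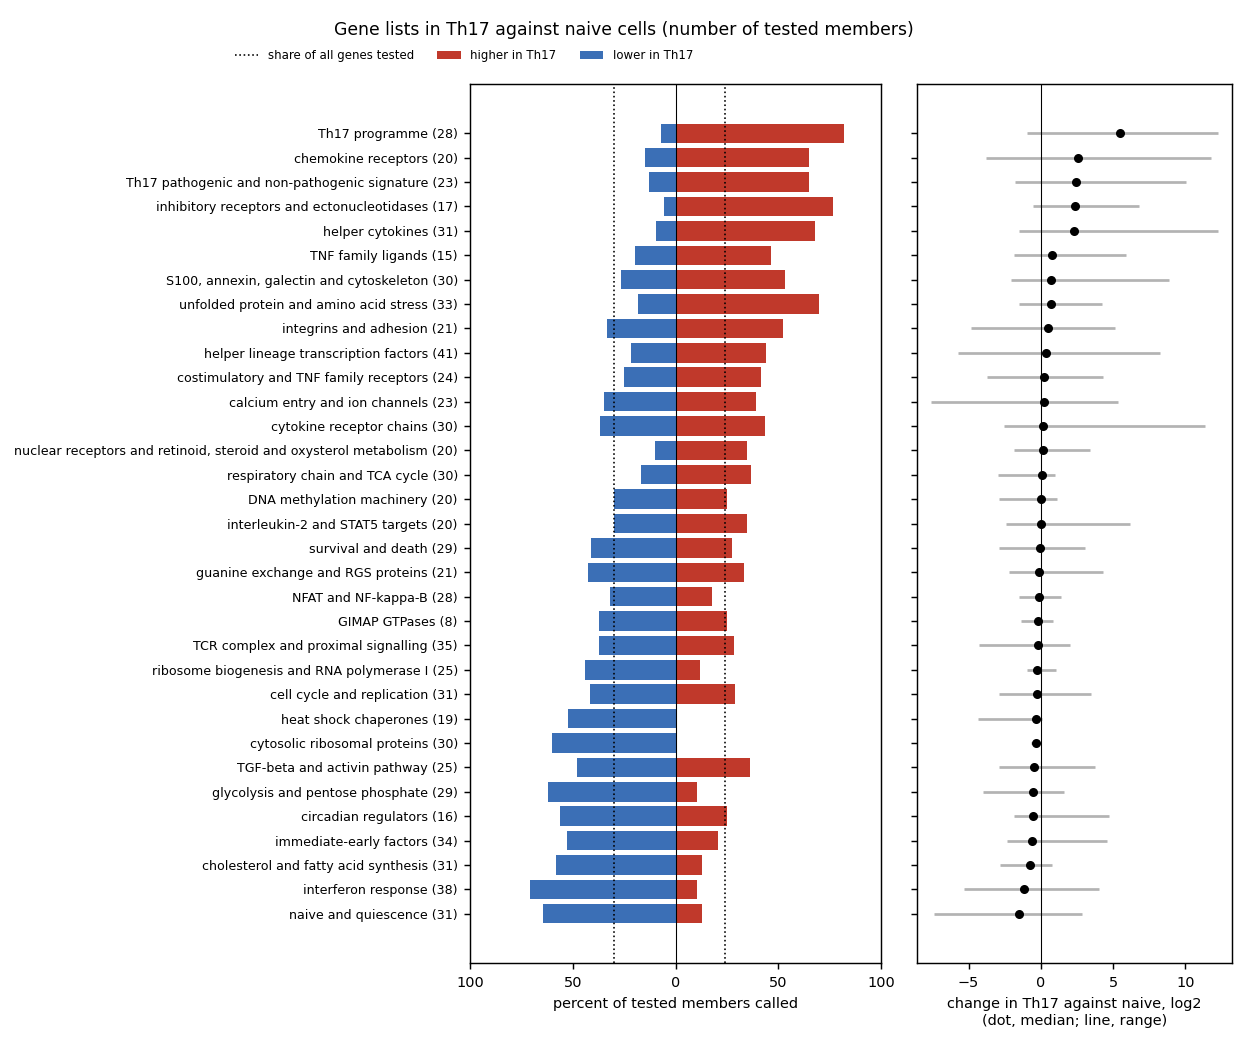
Left, percent of the tested members of each of 33 gene lists called higher (red, to the right) or lower (blue, to the left) in Th17 than in naive cells, with dotted lines at the share of all genes tested (24.1% and 30.0%). Right, median change (dot) and the range over members (line), in log2. In the fit drawn, the Th17 programme and the inhibitory receptors have the highest shares of rises and the interferon response the highest share of falls. With slide as a block only the Th17 programme kept its place.

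Glycolytic and lipid synthesis genes were more often lower than higher. Of 29 glycolysis and pentose phosphate genes 18 were lower and 3 higher (median -0.57, 9 and 2 with slide as a block). Pfkfb4, which sets the level of a glycolytic activator, fell by 3.98, Ldhb, a lactate dehydrogenase chain, by 3.32 and the glucose transporter Slc2a3 by 2.41. Among 31 cholesterol and fatty acid synthesis genes 18 were lower and 4 higher (median -0.74, 15 and 2 with slide as a block). Cyp51, an enzyme of sterol synthesis, fell by 1.82. Respiratory chain and TCA cycle genes had 11 of 30 higher and 5 lower with a median of 0.10. These counts moved, with 6 to 8 higher and 2 to 4 lower when any 1 of the 6 arrays was left out (6 and 2 without naive replicate 2, and a median of 0.005 without Th17 replicate 3) and 4 and 1 with slide as a block. Sdha and Sdhc, subunits of succinate dehydrogenase, rose by 1.01 and 0.76, and the mitochondrial enzyme gene Idh2 fell by 2.99.

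Ribosomal protein genes differed by small amounts, 18 of 30 lower and 0 higher, with a median of -0.34 that was -0.10 under quantile normalization, and 11 were lower without naive replicate 2 and 0 with slide as a block. Rplp1 was at -0.69 and Rps18 at -0.68, both called without the block alone. In the list of ribosome biogenesis genes 11 of 25 were lower and 3 higher (median -0.27), and 2 and 2 passed with slide as a block. Of 31 cell cycle genes 9 were higher and 13 lower (5 and 9 with slide as a block), against 24.1% and 30.0% of all genes. Cdk6 (2 of 3 naive arrays above background) rose by 3.13 ± 0.29, and E2f1, which drives S phase genes, fell by 2.89. Heat shock chaperones had 10 of 19 lower and 0 higher, and 3 were lower with slide as a block. Dnajb4 fell by 4.35 and Hspb1, a small chaperone, by 2.95.

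Genes that respond first to stimulation were more often lower than higher in Th17 cells. Of 34 immediate-early factors 18 were lower and 7 higher (median -0.59, and 7 and 6 with slide as a block). Fosb read 3.71, 3.26 and 3.03 in naive and 1.32, 1.29 and 1.07 in Th17 cells (-2.11 ± 0.17), and Fosl1 fell by 1.88. Dusp4, which dephosphorylates nuclear ERK, rose from between -0.02 and 0.31 to between 4.54 and 4.89 (4.58 ± 0.14, adjusted p = 3.29e-07). NFAT and NF-kappa-B genes had 5 of 28 higher and 9 lower, near the shares of all genes (3 and 4 with slide as a block), with Nfkb1 at 0.87 and the inhibitor genes Nfkbie and Tnfaip3 at -1.50 and -1.46. Of 35 tested T cell receptor and proximal signalling genes 10 were higher and 13 lower, against 24.1% and 30.0% of all genes, with a median of -0.18. Without Th17 replicate 2 or naive replicate 3 6 were higher, and with slide as a block 7 were higher and 7 lower with a median of 0.02. Cd3g rose by 2.05 and Cd3e by 1.62, while the adaptor gene Grap2 fell by 2.16. Cd3d (-0.05), Ptprc (-0.12) and Cd4 (0.36) were not called. Cd4 was called with slide as a block (0.80, adjusted p = 0.0278), with the replicate number as a block (adjusted p = 0.0456) and without Th17 replicate 3 (0.45, adjusted p = 0.0366). A second Cd4 probe gave 0.88 (adjusted p = 0.000659), so the probes of this gate gene differ on the call.

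Among 41 helper lineage transcription factors 18 were higher and 9 lower (median 0.39, and 15 and 5 with slide as a block). Eomes, a T-box factor of cytotoxic cells, read -0.69, -0.08 and -0.64 in naive and -7.71, -5.93 and -4.89 in Th17 cells, with 1 of 3 Th17 arrays above background (-5.71 ± 0.64, adjusted p = 0.000145). Helios, encoded by Ikzf2 and above background on 2 of 3 naive arrays, rose by 6.53 ± 0.27, Stat4 by 2.46 and Pparg by 3.38. Nuclear receptor and retinoid genes had 7 of 20 higher and 2 lower (4 and 2 with slide as a block, where the median of 0.13 became -0.09). Nr3c1, the glucocorticoid receptor, rose by 2.05 ± 0.13, and Rarg, a retinoic acid receptor, by 2.92 ± 0.24, which was 3.92 above Th1 cells (adjusted p = 3.31e-05). Circadian genes moved apart, with 4 of 16 higher and 9 lower (4 and 5 with slide as a block). Hlf rose by 3.60 ± 0.21 and Nfil3 by 2.77, and Dbp, a relative of Hlf, fell by 1.87. Cyp1b1, a target of the dioxin receptor, was at least 1.57-fold higher and above background on 0 Th1 arrays.

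Survival and signalling lists held changes in both directions, as did all genes tested, of which 24.1% were higher and 30.0% lower. Of 29 survival and death genes 8 were higher and 12 lower (6 and 7 with slide as a block), with the inflammatory caspase genes Casp4 and Casp1 at 3.05 and 2.45 and the proapoptotic genes Bid and Bcl2l11 at -1.58 and -1.53. Socs2, a STAT5-induced inhibitor of cytokine signalling, rose by 6.18 ± 0.19 in a list of 20 IL-2 and STAT5 genes of which 7 were higher and 6 lower (7 and 3 with slide as a block). Among RGS proteins and G-protein-coupled receptors 7 of 21 were higher and 9 lower, with Rgs16 at 4.27. Kcnk5, a potassium channel above background on 2 of 3 naive arrays, rose by 5.33 ± 0.42 in a list of 23 channel genes with 9 higher and 8 lower (10 and 5 with slide as a block). The DNA methylation machinery had 5 of 20 higher and 6 lower, near the shares of all genes (24.1% and 30.0%), and 3 were higher without Th17 replicate 2 or naive replicate 1, with Mbd2, a reader, at 1.13 and Dnmt3b, a writer, at -0.69. Of 8 GIMAP genes, GTPases of lymphocyte survival, 2 were higher and 3 lower (1 and 2 with slide as a block). In the list of genes linked in the literature to the pathogenic or non-pathogenic form of Th17 cells 15 of 23 were higher and 3 lower (median 2.46; 13 and 0 with slide as a block, and 1 lower without Th17 replicate 1 or naive replicate 2), and against Th1 cells 4 were higher and 8 lower.

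Markers of other cells were read in the same arrays, since in bulk RNA a change in the share of a cell type and a change in RNA per cell cannot be told apart. Their counts stand against 24.1% higher and 30.0% lower among all genes tested. The constant genes of the gamma and delta T cell receptor were not on the array under the names searched. Of 4 tested genes used as markers of gamma-delta T cells 3 were higher and 1 lower. Il17a is 1 of the 3, and since the sort selected its protein, its rise says nothing about such cells. Their summed level, which Il17a dominates, was 0.86 to 1.29 on naive and 9.05 to 9.52 on Th17 arrays. 5830411N06Rik, a scavenger receptor gene of gamma-delta T cells, was above background on 0 naive arrays and read 1.33, 0.53 and 1.07 in Th17 cells, at least 70.9-fold higher, and 1 of 3 Th1 arrays was above background. Its relative Cd163l1 read -2.36, -1.85 and -3.56 in Th17 cells and was above background on 0 naive and 0 Th1 arrays. Sox13, a factor of those cells, fell by 0.54 (adjusted p = 0.00855), not called with slide as a block (-0.19). The part of gamma-delta cells in any result was not tested. Of 6 tested NKT and innate-like T cell markers 3 were higher and 1 lower (median 1.54, and 3 and 0 with slide as a block). Against Th1 cells 2 of the 6 were higher and 0 lower. The part of such cells was not tested either. Of 9 markers of CD8 T and NK cells 2 were higher (Klrc1 at 5.34 with 1 of 3 naive arrays above background, and Klrk1, at least 1.87-fold) and 4 lower, with Cd8b1 at -3.42, and Cd8a was not among the genes tested.

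Of 12 regulatory T cell markers 8 were higher and 2 lower, and their summed level ranged from 6.46 to 6.59 on naive and from 7.25 to 7.51 on Th17 arrays. Against Th1 cells 1 was higher and 7 lower, beside 8.04% and 7.66% of all genes tested. Follicular helper markers were higher for 6 of 11 and lower for 1. Of 6 erythroid and platelet markers 3 were higher, and their summed level rose from between -2.28 and -1.39 to 1.07 or more. Hba-a1, a haemoglobin chain, read -4.25, -3.36 and -4.81 against -0.22, 1.45 and -0.21 (4.48 ± 1.22, adjusted p = 0.014) and was not called with slide as a block (6.45, adjusted p = 0.101). Kit was at 3.82, and 9 of the 12 mast cell, basophil and eosinophil markers, Cpa3, Fcer1a and Mcpt8 among them, were not above background on enough arrays to be tested. Of 7 tested MHC class II genes 1 was higher and 4 lower, with H2-Ab1 at -2.65 and a summed level of 2.83 to 2.93 on naive and 0.64 to 1.17 on Th17 arrays. Of 6 tested B and plasma cell markers 1 was called, Cd22 at 1.18 (not with slide as a block, adjusted p = 0.0542), and Ms4a1, Cd79b and Pax5 were not above background on enough arrays to be tested. Cr2, at -0.48 and not called, was lower with slide as a block (-1.66, adjusted p = 0.0211), while its other probe gave 1.19 (limma adjusted p = 0.000998). Myeloid markers had 3 of 14 higher, Cd14 at 3.05 among them, and 3 lower, against 24.1% and 30.0% of all genes. Without Th17 replicate 1 or 2, 5 of them were higher. Stromal markers had 0 of 5 higher and 1 lower. In the fit that blocks on slide 1 erythroid marker was higher, 2 MHC class II genes were lower, and no follicular helper, myeloid or stromal marker was lower. The part of these cells in the results was not tested.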

How the data were processed

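Agilent mouse arrays of design 026655, read in 1 colour, measured the Cy3-labelled RNA of 9 sorted samples. The deposited array files hold, per the file headers, a processed intensity for each spot from Agilent Feature Extraction 10.7.3.1 (10.5 in the submitters' processing notes), on a linear scale and not normalized between arrays. The deposited value table holds log2 values of the same arrays by the authors, with how they were scaled and centred not given in the sources used here. Over 19224 probes above background on all arrays, its difference between each Th17 and each naive array lay within 0.05 of that from the array files for 100% of probes to 3 digits, and it served as an alternative.

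Processed intensities were divided by the 75th percentile of their array over non-control spots and taken as log2. Spots flagged as outliers were left out and spots of 1 probe averaged. Probes entered the fit where 3 or more of the 9 arrays had them well above background and 2 or more arrays of each group had an unflagged value, and the brightest probe over all arrays stood for each gene. limma 3.58.1 in R 4.3.3 was fitted to all 9 arrays (lmFit, eBayes), with Th17 minus naive as the contrast and Benjamini-Hochberg adjustment over 19134 genes, and it was tested on simulated data. Symbols and promoters came from RefSeq (GRCm38.p6), and no coordinate of the array design was used. Of 39429 probes 12195 had no symbol.

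Genes were named by rule: the members of the Th17 programme and the sort, the 15 largest rises and falls, the 12 largest lower bounds each way and, from each list, no more than 4 genes with the smallest p. Rises, falls and bounds were taken only from called genes with a symbol whose naive and Th17 arrays did not overlap. The rule's brightest genes are left out, since levels of different probes are not comparable. A few named genes are left unreported here. Members and lists were chosen with earlier results of these data known. The number of arrays, 3 a group, limits the precision. The labels state no pairing by replicate number, and the fit used none. Residuals of same-numbered naive and Th17 arrays correlated at 0.029, 0.0047 and 0.064, and those of differently numbered arrays at -0.054 to 0.037. With 3 arrays a group these values cannot decide whether samples were paired.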

Additional observations from a re-analysis of the deposited data

How the results depend on the processing

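Over the 19 alternatives all of the 205 named and called genes kept their direction except Slamf1, which was at -0.44 (adjusted p = 0.0444) and at 0.0464 (adjusted p = 0.901) with slide as a fixed block. Of the 30 named genes that were not called 11 changed sign in some alternative, Batf, Cd3d and Ptprc among them. Leaving out 1 array at a time gave between 8830 and 10178 called genes, 3970 to 4567 of them higher and 4823 to 5611 lower. With the replicate number as a block 10352 were called, 4632 higher and 5720 lower. The planned normexp correction gave 1223 called genes, 688 higher and 535 lower, and 1206 genes called and at least 2-fold changed. In that setting the background mean estimated for Th1 replicate 2 was -2093, and 5 of its spots had a local background over 1000. Without these spots, an alternative chosen after seeing the data, 8710 were called, with 2374 genes called and at least 2-fold changed. With slide as a fixed block 5215 were called, 2693 higher and 2522 lower, and with slide as a random block 9023. Taking the 75th percentile over the probes detected on every array moved the share of higher calls from 44.5% to 51.5% (10163 called) and the median of all genes to -0.002. Of 205 named and called genes, 77 lost the call under normexp and 22 under the fixed slide block, and Hbb-bt, Irf4, Rpl3, Rpl9, Rps16 and Slamf1 also elsewhere. When all probes of a gene were averaged, 8 called genes had a called change of the opposite sign, and 61 of 3310 genes with several probes had probes called in opposite directions.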

Other observations

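Some genes stood far lower on a single Th17 array than on the others. On Th17 replicate 2, 8 genes lay at least 5 log2 units below both other Th17 arrays, whose levels exceeded 0, and 1 gene did so on Th17 replicate 3, while no gene did on the other 7 arrays. The 6 with a symbol on replicate 2 were Cd247, Cks2, Kdm4a, Poglut1, Ppip5k2 and Sema7a. They were named after their values were seen.

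Cd247, the zeta chain of the T cell receptor complex, read between 3.09 and 3.17 in naive cells and 2.07, -7.60 and 2.11 in Th17 cells, a limma change of -4.26 (adjusted p = 0.142). Without Th17 replicate 2 it was -1.03 (adjusted p = 0.00136). Sema7a, a semaphorin, was at -5.39 (adjusted p = 0.141) with that array and at -1.32 (adjusted p = 0.00104) without it. Eci1, an enzyme of fatty acid oxidation, read -0.49, -7.34 and -0.42 in Th17 cells and so did not meet the level of 0 asked for above. It was at -4.02 (adjusted p = 0.0624) with Th17 replicate 2 and at -1.72 (adjusted p = 4.4e-05) without it.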
